A study of Mus musculus with 5 samples.

Results

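The transcripts described here encode 10 subunits of the nucleosome remodelling and deacetylase (NuRD) complex, which Ikaros binds: Chd4, Hdac1, Hdac2, Mta1, Mta2, Mbd3, Gatad2a, Gatad2b, Rbbp4 and Rbbp7. They were taken by gene symbol and made up 12 transcript rows of 26531, and 10 symbols of 22098. Ikaros is a zinc finger protein that binds DNA and directs blood cell development. Cells were sorted as Hardy fraction A, which in Hardy's scheme opens the B lineage, and other lineages were not depleted first. All mice were C57BL/6, 6 to 7 weeks old, and the source was bone marrow. The 2 dF1 libraries are of the genotype Ikaros_ZnF1-/-, with a mutant zinc finger 1, and the 1 dF4 library is of the genotype Ikaros_ZnF4-/-, with a mutant zinc finger 4. The 2 wt libraries are wild type. The design text names biological replicates for dF1 and low coverage for dF4. For wt it is not stated whether different mice were used, so a p-value here reflects the spread among these libraries, which may be technical in wt.

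NuRD joins an ATP-driven nucleosome remodeller to histone deacetylases and is best known for closing chromatin at enhancers and promoters. Most of its subunits exist as related proteins that can take each other's place. In lymphocytes Ikaros copurifies with NuRD and binds Chd4, and Chd4 is needed for normal lymphocyte development. Levels are given in RPKM, a read count divided by transcript length in kilobases and by library size, so levels of different genes can be set side by side per length.

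Ikzf1, the gene of Ikaros, was at 182.2 and 182.1 RPKM in dF1, 237.7 RPKM in dF4 and 175.8 and 141.1 RPKM in wt, and a level over the whole transcript does not check a mutant finger. The low values of the dF4 library were whole multiples of 1 read for 82.0% of 4150 values (within 0.1 read), which puts it at about 597000 reads, and the depth of the others could not be read from the values. Of 8 plasmacytoid dendritic cell (pDC) markers, 8 were lower in dF4 than in any other library, with summed levels of 3788 and 4371 RPKM in dF1, 566.1 RPKM in dF4 and 4018 and 4419 RPKM in wt. Cd300c was the pDC marker listed at 0 in dF4. Of all 12215 transcripts that averaged at least 1 RPKM, dF4 lay above the 4 other libraries for 40.3% and below them for 38.1%. Of 11 neutrophil markers, 11 were higher in dF4, with sums of 219.9 and 857.3 RPKM in dF1, 33696 RPKM in dF4 and 404.5 and 1083 RPKM in wt. The labels call the cells proB cells. The 9 early B markers used were above 0 in every library and summed to 539.6 and 513.2 RPKM in dF1, 909.8 RPKM in dF4 and 644 and 439.9 RPKM in wt, below the pDC sum in both dF1 and both wt libraries. Of these 9, 6 were higher in dF4 than in any other library and 2 were lower, Dntt at 220.9 and 187.3 RPKM in dF1, 14.8 RPKM in dF4 and 238.9 and 152.5 RPKM in wt, and Blnk at 110.6 and 95.7 RPKM in dF1, 71.9 RPKM in dF4 and 124.2 and 138.6 RPKM in wt. The 5 mature B markers summed to 11.4 and 12.7 RPKM in dF1, 375.3 RPKM in dF4 and 20.8 and 27.6 RPKM in wt. A summed level depends on which genes are listed: Irf8 alone gave 1190 RPKM of the pDC sum in wt replicate 1. In bulk RNA, fewer cells of a type and less RNA per cell cannot be told apart. The part of cell makeup in the results on NuRD was not tested.

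Members of this complex have close relatives and processed copies in the genome, so each transcript was first compared with all transcripts of GENCODE M21. Hdac1 had the closest copies. The processed pseudogene Gm10093 matched 1444 bases of it, 70.9% of the transcript, at 99.4% identity with an unbroken match of 450 bases, and 3 other loci matched it at 90% or more. Hdac2 matched Hdac1 at 77.2% with no unbroken match over 17 bases. To show what a short read can and cannot tell apart, coding bases 301 to 390 of Hdac1 (chromosome 4) are given with the aligned stretches of Gm10093 (chromosome 17) and Hdac2 (chromosome 10), 5′ to 3′ from GENCODE M21, in which capitals mark bases that differ from Hdac1:
Hdac1: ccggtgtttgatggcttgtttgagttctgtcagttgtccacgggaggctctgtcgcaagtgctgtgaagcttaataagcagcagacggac
Gm10093: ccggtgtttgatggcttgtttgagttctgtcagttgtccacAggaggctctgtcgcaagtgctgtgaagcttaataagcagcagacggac
Hdac2: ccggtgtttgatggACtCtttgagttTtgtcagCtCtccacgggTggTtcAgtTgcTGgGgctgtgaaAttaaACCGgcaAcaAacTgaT
Over these 90 bases the pseudogene differs from Hdac1 at 1 base and Hdac2 differs at 23. A read from this stretch could therefore separate the deacetylases from each other, whereas a short read that misses this base could not separate Hdac1 from its copy.

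Rbbp7 had a single near copy, the processed pseudogene Gm6382, which matched 42.0% of it at 97.1% identity. Rbbp4 had 2 processed pseudogenes above 90% identity, and 18.1% and 11.8% of its transcript were also part of Gm26722 and Sync on the same chromosome. Coding bases 401 to 490 of Rbbp7, beside Gm6382 (both on chromosome X) and Rbbp4 (chromosome 4), show the same contrast, with capitals for bases that differ from Rbbp7:
Rbbp7: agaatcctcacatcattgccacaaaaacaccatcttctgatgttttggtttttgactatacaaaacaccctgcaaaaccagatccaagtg
Gm6382: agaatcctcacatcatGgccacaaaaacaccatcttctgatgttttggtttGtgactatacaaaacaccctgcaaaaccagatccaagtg
Rbbp4: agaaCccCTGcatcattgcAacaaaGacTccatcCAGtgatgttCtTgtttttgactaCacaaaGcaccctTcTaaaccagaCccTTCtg
The pseudogene differs at 2 of the 90 bases and Rbbp4 at 20. Chd4, Hdac2, Mta1, Mta2, Mbd3, Gatad2a and Gatad2b had 0 near copies (90% identity over at least 200 bases). How the authors assigned reads that fit several places is not given in the sources used here. Gapdh, a gene that every cell uses and that has many processed copies, was listed at 0.2 to 0.5 RPKM. The levels of Hdac1, Rbbp7 and Rbbp4 are therefore uncertain.

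Chd4 is the remodelling ATPase of the complex and the subunit most tied to Ikaros. It was at 92.9 and 109.1 RPKM in dF1, 114.1 RPKM in dF4 and 100.9 and 92 RPKM in wt, which placed its wt mean at percentile 96.4 of the tested transcripts. The dF1 and wt ranges overlapped, and dF4 was the highest of the 5. The dF4 value rests on about 441 reads, with an exact 95% Poisson interval of 103.8 to 125.4 RPKM, which reaches below dF1 replicate 2. Such intervals cover counting error of the dF4 library only. The remodeller Chd3, which can take the place of Chd4, was at 35.2 and 33.6 RPKM in dF1, 35.5 RPKM in dF4 and 37.3 and 32.9 RPKM in wt, and Chd5, known mainly from neurons, was at 0.1 RPKM or listed at 0. Chd4 made up 72.5% to 76.4% of the summed RPKM of the 3 remodellers in each library.

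The Mta proteins form the scaffold that holds the deacetylases. Mta2 was the most abundant member in wt, at 104 and 110.4 RPKM in dF1, 106.6 RPKM in dF4 (92.4 to 122.7) and 114.4 and 101.4 RPKM in wt. The dF1 and wt ranges overlapped and dF4 lay among them. Mta1 was at 35.3 and 42.4 RPKM in dF1, 20.3 RPKM in dF4 and 35.8 and 37.2 RPKM in wt. In dF4, Mta1 lay below every other library, at 55.6% of the wt mean, and its interval of 14.1 to 28.5 RPKM (about 34 reads) also ended below them. Mta3, the other scaffold protein, was also lowest in dF4. Its main transcript (NM_001171052) was at 28.4 and 34.2 RPKM in dF1, 16.8 RPKM in dF4 (11.1 to 24.5, about 27 reads) and 29.6 and 28.4 RPKM in wt. A shorter Mta3 transcript (NM_054082) was listed at 0 in dF4, against 6.8 to 8.8 RPKM elsewhere. With all transcripts of each gene summed, Mta2 made up 57.0% and 53.4% of Mta RPKM in dF1, 72.1% in dF4 and 58.1% and 55.9% in wt. Such a share is taken within a library and does not move with the scaling of the library. It still carries the counting error of the values in it, which was not computed for shares.

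Mbd3 is the methyl-CpG-binding-domain subunit that binds methylated DNA poorly, and Mbd2 is its relative that binds it well and excludes it from the complex. Mbd3 was at 65.1 and 81.4 RPKM in dF1, 53.2 RPKM in dF4 (39.8 to 70.3) and 70.1 and 72.1 RPKM in wt. The dF4 value was the lowest, but its interval reached past dF1 replicate 1 and wt replicate 1. Mbd2 was at 70.8 and 70.1 RPKM in dF1, 81.3 RPKM in dF4 (65.2 to 99.7) and 72.6 and 62.2 RPKM in wt. Mbd3 made up 47.9% and 53.7% of the pair in dF1, 39.6% in dF4 and 49.1% and 53.7% in wt, so that the dF4 share lay below all the others.

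Gatad2a and Gatad2b, also called p66-alpha and p66-beta, link the Mbd subunit to Chd4. The main Gatad2a transcript (NM_001113345) was at 29.7 and 32.6 RPKM in dF1, 36.6 RPKM in dF4 (30.2 to 43.9, about 114 reads) and 28.9 and 27.8 RPKM in wt. Gatad2b was at 31 and 31.1 RPKM in dF1, 13.1 RPKM in dF4 and 29.3 and 28.9 RPKM in wt. Gatad2b was the member furthest from wt in dF4, at 45.0% of the wt mean, with an interval of 7.34 to 21.6 RPKM on about 15 reads that ended below the other 4 libraries. The pair was close to even in the dF1 and wt libraries and uneven in dF4: with all transcripts summed, Gatad2b made up 49.0% and 47.0% of the pair in dF1, 24.8% in dF4 and 48.8% and 49.4% in wt. A second Gatad2a transcript (NM_145596) was at 2.6 and 2.5 RPKM in dF1, 3.2 RPKM in dF4 and 1.8 and 1.8 RPKM in wt. The third (NM_001113346) was listed at 0 in every library. The Gatad2a transcripts are nearly the same length, and how reads were divided among them is not given, so the gene is best read as a whole.

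Rbbp4 and Rbbp7 are histone-binding proteins that NuRD shares with other chromatin complexes. Rbbp4 was at 40.6 and 46.4 RPKM in dF1, 36.3 RPKM in dF4 (29.5 to 44.4) and 46.9 and 30.7 RPKM in wt. The wt libraries spanned all the other values, so Rbbp4 differed more between the wt libraries than between genotypes. Rbbp7 was at 20.4 and 23.6 RPKM in dF1, 26.4 RPKM in dF4 (18.5 to 36.5) and 21.8 and 17.5 RPKM in wt. Rbbp7 is X-linked and the libraries differed in sex. Xist, made from the inactive X chromosome of females, was at 93.2 and 0 RPKM in dF1, 0 RPKM in dF4 and 77.7 and 83 RPKM in wt. The highest Rbbp7 values were in the 2 libraries with Xist listed at 0. The part of sex in this was not tested. Rbbp7 made up 33.4% and 33.7% of the pair in dF1, 42.1% in dF4 and 31.7% and 36.3% in wt.

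Hdac1 and Hdac2 are the deacetylases of the complex. Hdac2 was at 29.7 and 30.5 RPKM in dF1, 38.2 RPKM in dF4 (27.9 to 50.9) and 36.3 and 33.9 RPKM in wt. It was the one member whose dF1 libraries both lay below both wt libraries. Hdac1 was at 8.5 and 8.4 RPKM in dF1, 7.5 RPKM in dF4 (3.47 to 14.4, about 9 reads) and 7.8 and 5.1 RPKM in wt. Its dF1 libraries both lay above both wt libraries, by less than the distance between the wt libraries. Hdac1 made up 22.3% and 21.6% of the pair in dF1, 16.4% in dF4 and 17.7% and 13.1% in wt. Given its near-identical copies, the low level of Hdac1 beside Hdac2 is a feature of this table and no measure of the protein ratio.

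**Figure D1:**
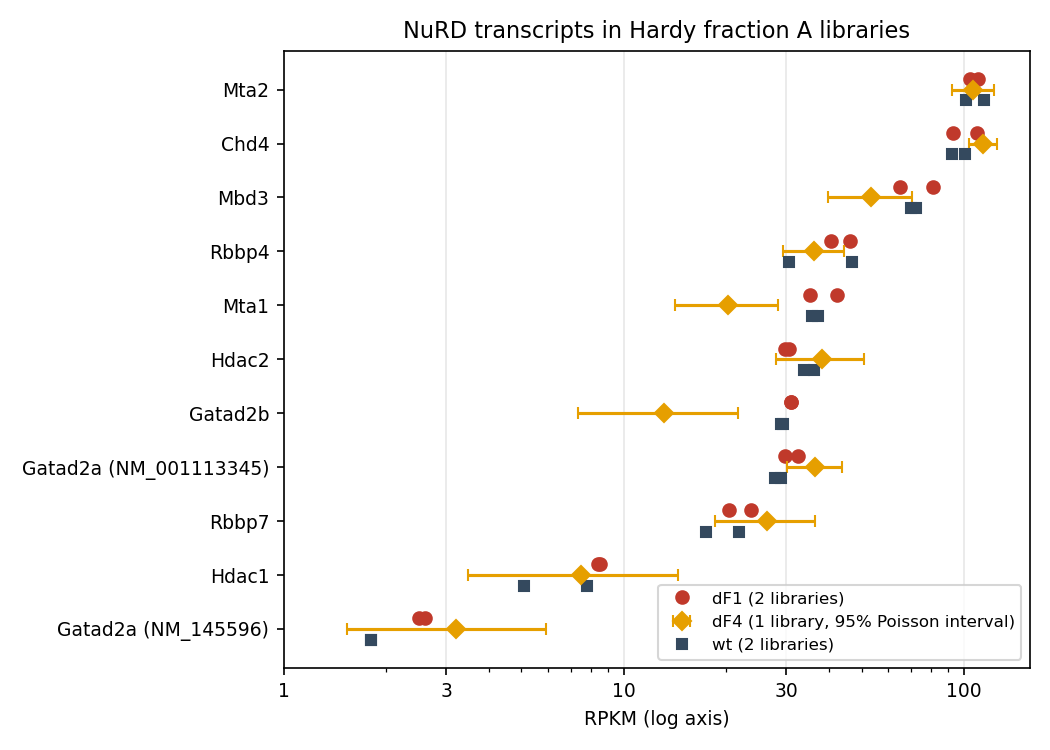
Level of each tested NuRD transcript in RPKM on a log axis, with circles for the 2 dF1 libraries, diamonds with exact 95% Poisson intervals for the dF4 library and squares for the 2 wt libraries. Mta2 and Chd4 sit near 100 RPKM in every library, and the dF4 intervals of Mta1 (14.1 to 28.5 RPKM) and Gatad2b (7.34 to 21.6 RPKM) end below the other libraries.

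In wt the members thus ran from Mta2 and Chd4, through Mbd3, to a group between 27.8 and 46.9 RPKM that holds Rbbp4, Mta1, Hdac2, Gatad2b and Gatad2a, and then to Rbbp7 and Hdac1. Within that group, the wt range of Rbbp4 overlapped those of Mta1 and Hdac2, that of Mta1 overlapped Hdac2, and Gatad2b and Gatad2a shared a value of 28.9 RPKM. The lower wt value of Mta2, 101.4 RPKM, lay just above the higher wt value of Chd4, 100.9 RPKM, and their dF1 ranges overlapped. The median wt level was 35.1 RPKM over the 11 member transcripts that averaged at least 1 RPKM, against 10.6 RPKM over all 12215 transcripts that did.

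**Figure D2:**
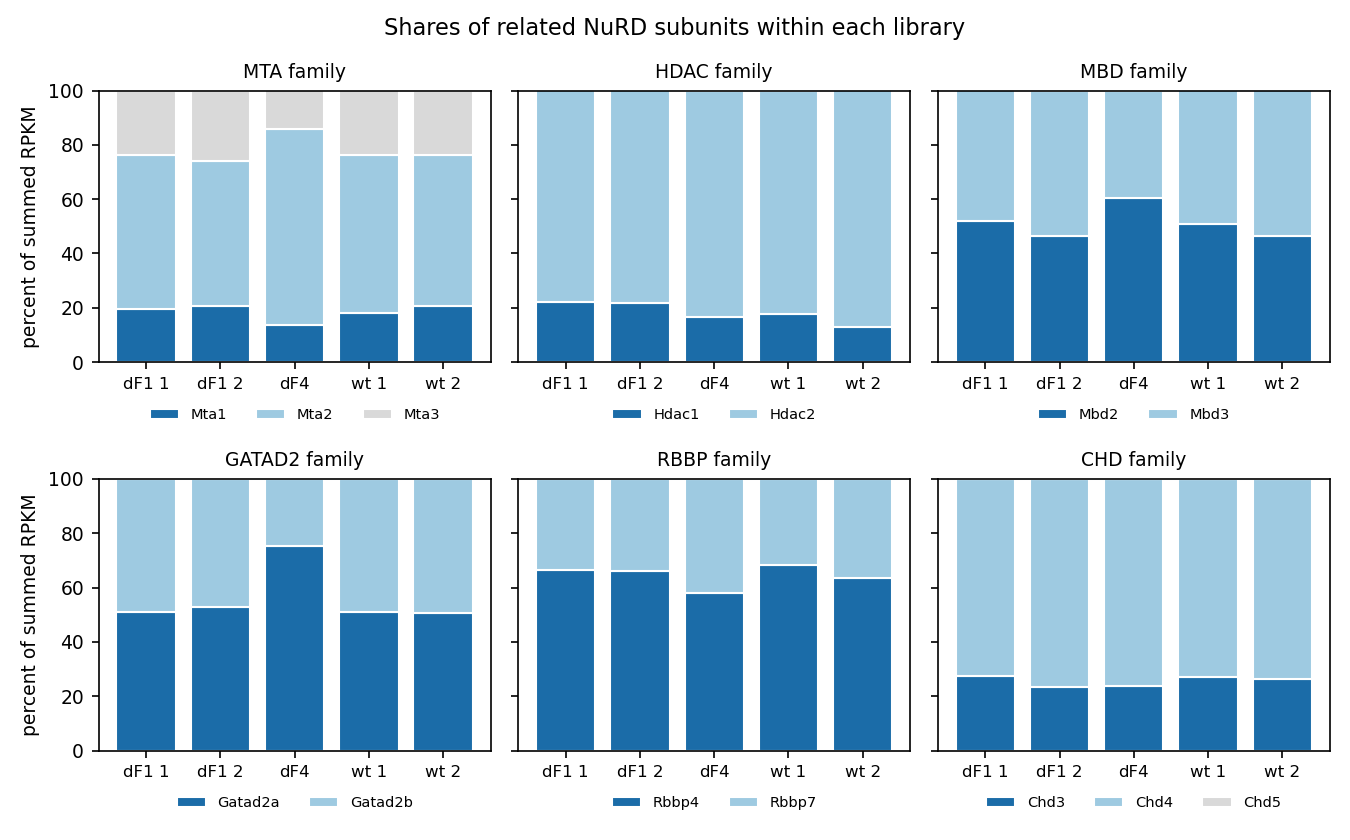
Share of each related subunit, as percent of the family's summed RPKM with all transcripts of a gene added, in 2 dF1 libraries, 1 dF4 library and 2 wt libraries. The dF4 bar stands apart for Gatad2b (24.8% in dF4, against 47.0% to 49.4% elsewhere) and for Mta2 (72.1% in dF4, against 53.4% to 58.1% elsewhere). The dF4 share also lay outside the others for Mbd3 (39.6%, against 47.9% to 53.7%) and Rbbp7 (42.1%, against 31.7% to 36.3%). Counting error of the shares was not computed, and the dF4 value of Gatad2b rests on about 15 reads.

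The first comparison asked whether the finger 1 mutation changed NuRD transcripts. None of the 11 member transcripts tested passed (0 of 11), as was so for all transcripts: limma called 0 of 12215, or 0%, at an adjusted p of 0.05. At an unadjusted p under 0.05 there were 875 transcripts (7.16%), 0 of them members, and robust variances called 33 transcripts, a filter at 5 RPKM 25 and no filter 245, with 0 members each time. The differences, dF1 minus wt on log2(RPKM + 1), were small: the member median was 0.09, against 0.0072 over all transcripts, and the median size regardless of sign was 0.13 for the members and 0.14 for all. An exact permutation test of 2 against 2 cannot give a p below 0.333.

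Since a p that misses the threshold does not show equal levels, the 95% confidence intervals state what these data leave room for. For Chd4 the difference was 0.06 with an interval of -0.29 to 0.41 (limma adjusted p = 0.945), and for Mta2 -0.0074 with an interval of -0.33 to 0.31 (adjusted p = 0.997). Gatad2b had the narrowest interval, 0.09 (-0.18 to 0.36, adjusted p = 0.885). The bounds of the 11 intervals ran from -0.50 (Hdac2) to 0.92 (Hdac1), and a difference of 1 on this scale is close to a doubling for all but the low transcripts. With 1 library left out they reached -1.16 to 1.54 for Rbbp4 and -0.80 to 1.53 for Hdac1, and with a pseudocount of 0.1 the upper bounds were 1.05 for Hdac1 and 1.02 for Gatad2a NM_145596. With all libraries the Rbbp4 interval was -0.38 to 0.76, or -0.73 to 1.11 with no filter. Room for a doubling of Rbbp4 therefore depends on the setting, and a doubling of Hdac1 is not outside what these data allow.

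With all libraries, Hdac1, the minor Gatad2a transcript and Hdac2 had the largest differences, an order that depends on single libraries: without wt replicate 2 that of Hdac1 was 0.10, and without wt replicate 1 that of Rbbp4 was 0.49. Hdac1 was at 8.45 ± 0.0707 RPKM in dF1 and 6.45 ± 1.91 RPKM in wt (SD, n = 2 each), a log2 difference of 0.37 (SE 0.21, limma adjusted p = 0.786). The minor Gatad2a transcript NM_145596 was 0.34 higher (SE 0.14, adjusted p = 0.710), at 2.55 ± 0.0707 RPKM in dF1 and 1.8 ± 0 RPKM in wt (SD, n = 2 each). Hdac2 was at 30.1 ± 0.566 RPKM in dF1 and 35.1 ± 1.70 RPKM in wt (SD, n = 2 each), a difference of -0.21 (SE 0.11, adjusted p = 0.755). The dF1 range lay above the wt range for 4 of 11 member transcripts, namely Hdac1, Gatad2b and both Gatad2a rows, where 16.8% of all transcripts did so, and below it for 1 of 11, Hdac2, against 17.9%. Of those 4, Gatad2a contributes 2 rows of a single gene. Either way the members were at 5 of 11, against 34.7%. None of the 5 passed the test.

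Replicates of a genotype also differed, over all transcripts as well as over the members. The median of replicate 2 minus replicate 1 in wt was -0.10 for the members, near the -0.08 over all transcripts. In dF1 it was 0.13 for the members, against 0.05 over all transcripts.

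**Figure D3:**
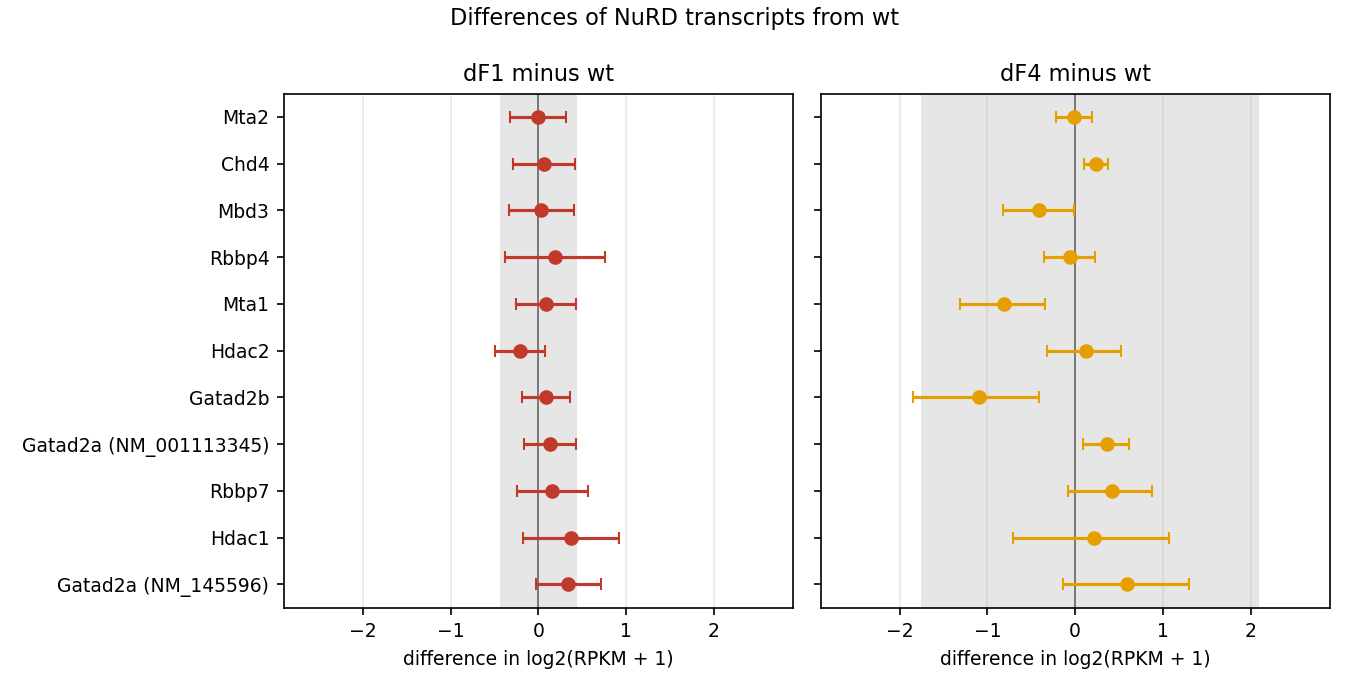
Difference of each NuRD transcript from the wt mean on log2(RPKM + 1), dF1 on the left with limma's 95% confidence interval and dF4 on the right with the interval from counting error in dF4. Grey bands span the 5th to 95th percentile of all 12215 tested transcripts (-0.43 to 0.43 for dF1 and -1.74 to 2.09 for dF4), and every member's difference lies inside them.

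For the finger 4 mutation there was 1 library and so no test. Gatad2b, Mta1 and Mbd3 were lower in dF4 than in any other library, and Chd4, Hdac2, Rbbp7 and Gatad2a were higher. The median size of the members' difference from wt, regardless of sign, was 0.36 on the log2 scale, against 0.53 over all tested transcripts. The signed median of the members was 0.12, against 0.02. Their range was -1.09 for Gatad2b to 0.58 for Gatad2a NM_145596, a minor transcript on about 10 reads (-0.14 to 1.30). With 1 transcript a gene the highest was 0.42, for Rbbp7. The members' median level is above that of all transcripts, and counting error is larger at low levels, which was not matched in this comparison. For 78.5% of all transcripts dF4 lay outside the other 4 libraries, and the members were at 8 of 11 (72.7%), a share near that background. The members were above the 4 others for 5 of 11 (Chd4, Hdac2, Rbbp7 and 2 Gatad2a rows), against 40.3%, and below for 3 of 11 (Mta1, Mbd3 and Gatad2b), against 38.1%.

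Counting error in the shallow dF4 library narrows this list. The whole Poisson interval lay outside the other libraries for 28.0% of all transcripts (16.8% above and 11.2% below). The members were at 2 of 11 (18.2%), with 0 above and 2 below. That share was under the background for both directions together and over it for the lower direction alone, on only 11 rows. The 2 were Mta1, with a dF4 minus wt difference of -0.82 (-1.31 to -0.35), and Gatad2b, with -1.09 (-1.85 to -0.41). Gatad2b was also the single member past a log2 difference of 1 and outside both wt libraries, where 12.9% of all transcripts were lower and 13.4% higher by that rule. For Mta2 the difference was -0.015 (-0.22 to 0.19) and for Rbbp4 -0.06 (-0.36 to 0.22), so halving or doubling in this library lies outside counting error for both. Rbbp4, with wt libraries far apart, was at 0.23 without wt replicate 1 and -0.36 without wt replicate 2.

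The dF1 and dF4 differences share the wt libraries, so no correlation between them was computed. Side by side, Mta1 was at 0.08 in dF1 and -0.82 in dF4, Gatad2b at 0.09 and -1.09, and Chd4 at 0.06 and 0.24.

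The transcripts whose profile over the 5 libraries was closest to that of Chd4 were Zfp41, Atp5a1 and Csrp2bp, by Euclidean distance between centred log2(RPKM + 1) values among 8758 transcripts (0.028, 0.033 and 0.044). Of the other members, Gatad2a (NM_001113345) was nearest to Chd4, at 0.13, and Gatad2b furthest, at 1.22. With 5 libraries and profiles that are nearly flat, such closeness is a description only.

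The other subunits and neighbours of the complex were read from lists of related chromatin proteins. Of the 5 further NuRD subunits, 3 were tested (Chd3, Mta3 and Mbd2), and 0 passed between dF1 and wt. Chd5 and Cdk2ap1 fell below the filter, and Cdk2ap1, a small subunit at 0.7 RPKM or less, has a copy at 99.4% identity over 98.3% of its transcript. The other lists held complexes that share Hdac1 and Hdac2 or the Rbbp proteins, the SWI/SNF remodellers, which Ikaros also binds, and transcription factors that bind NuRD. With the NuRD relatives they came to 70 tested genes, of which 0 passed in either direction between dF1 and wt (lowest limma adjusted p = 0.662).

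In dF4, the median dF4 minus wt difference was 0.16 over 13 Sin3 genes, -0.31 over 6 NCoR genes, -0.13 over 9 PRC2 genes and 0.07 over 17 SWI/SNF genes. Of the Sin3, NCoR and PRC2 genes, 0 differed by 1 or more in either direction, and of the 17 SWI/SNF genes 1 was higher. Over all transcripts, 13.4% were higher by at least 1 and above both wt libraries, and 12.9% were lower by at least 1 and below both. The counts by list are the same with that condition added. The list of CoREST and MIER proteins, which also bind Hdac1 and Hdac2, had a median of -0.38 over 9 genes. By at least 1, 2 of the 9 were lower and 0 higher. Among them, Rcor3, a CoREST scaffold, was at 11.3 and 10.2 RPKM in dF1, 2.1 RPKM in dF4 (about 2 reads, 0.253 to 7.54) and 11.8 and 12.5 RPKM in wt. Of 4 further tested partners of the Rbbp proteins, 1 was higher by at least 1, namely Chaf1b of the chromatin assembly factor CAF-1. Chaf1b was at 9.9 and 12 RPKM in dF1, 26.9 RPKM in dF4 (18.3 to 38.2) and 11 and 12.7 RPKM in wt. Proliferation genes were higher in dF4 than the wt mean for 17 of 19, against 6264 of all 12215 transcripts. Their median difference was 0.51 over 19 genes. By at least 1 and above both wt libraries, 5 were higher, against 13.4% of all transcripts. Ccnb1 and Pcna went the other way, at -0.24 and -0.13. Mki67 was at 48 and 54.3 RPKM in dF1, 146 RPKM in dF4 and 65.2 and 51.1 RPKM in wt. The part of proliferation in the Chaf1b value was not tested.

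The list of 9 tested transcription factors that bind NuRD holds Ikzf1 itself. Of the 9, 5 were higher in dF4 by at least 1 on the log2 scale and above both wt libraries. By the mirrored rule 1 was lower. Of all transcripts, 13.4% were higher and 12.9% lower by these rules. Bcl11b, 1 of the 5, was at 0.4 to 0.5 RPKM in the dF1 and wt libraries and passed the filter through dF4 alone. With the filter on the 4 dF1 and wt libraries, an alternative chosen after seeing the data, 4 of 8 were higher and 1 was lower, where 9.92% and 14.1% of all transcripts were. Ikzf3, which encodes the Ikaros relative Aiolos, was at 51.3 and 45.3 RPKM in dF1, 164.7 RPKM in dF4 (149.0 to 181.6) and 55.9 and 29.1 RPKM in wt. Zfpm1, which encodes FOG1, a partner of GATA1 in red cell and platelet precursors, was at 10.4 and 16.1 RPKM in dF1, 54.3 RPKM in dF4 (44.6 to 65.4) and 11.2 and 7.9 RPKM in wt. Bcl11a, a repressor needed in B cell and pDC development, was at 48.8 and 64.5 RPKM in dF1, 15.5 RPKM in dF4 (9.06 to 24.9) and 52.7 and 71 RPKM in wt. Between dF1 and wt, 0 of the 9 passed. Beside these values stand the marker sums given above, with erythroid markers at 6.8 and 27.8 RPKM in dF1, 720.9 RPKM in dF4 and 10.1 and 37.6 RPKM in wt. The lymphoid markers differed too, in both directions. In dF4, 4 of 4 tested mature B markers were higher than in any other library, where 40.3% of all transcripts were. Of 8 T markers, 6 were higher and the other 2 were lower. Cd3d was at 31.3 and 29.2 RPKM in dF1, 115.5 RPKM in dF4 and 25 and 15.2 RPKM in wt. Of 8 NK markers, 0 were higher in dF4 than in any other library and 6 were lower, where 38.1% of all transcripts were lower. The NK sums were 1688 and 1490 RPKM in dF1, 562 RPKM in dF4 and 1414 and 613.8 RPKM in wt. The part of these markers in the values of the factors was not tested.

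**Figure D4:**
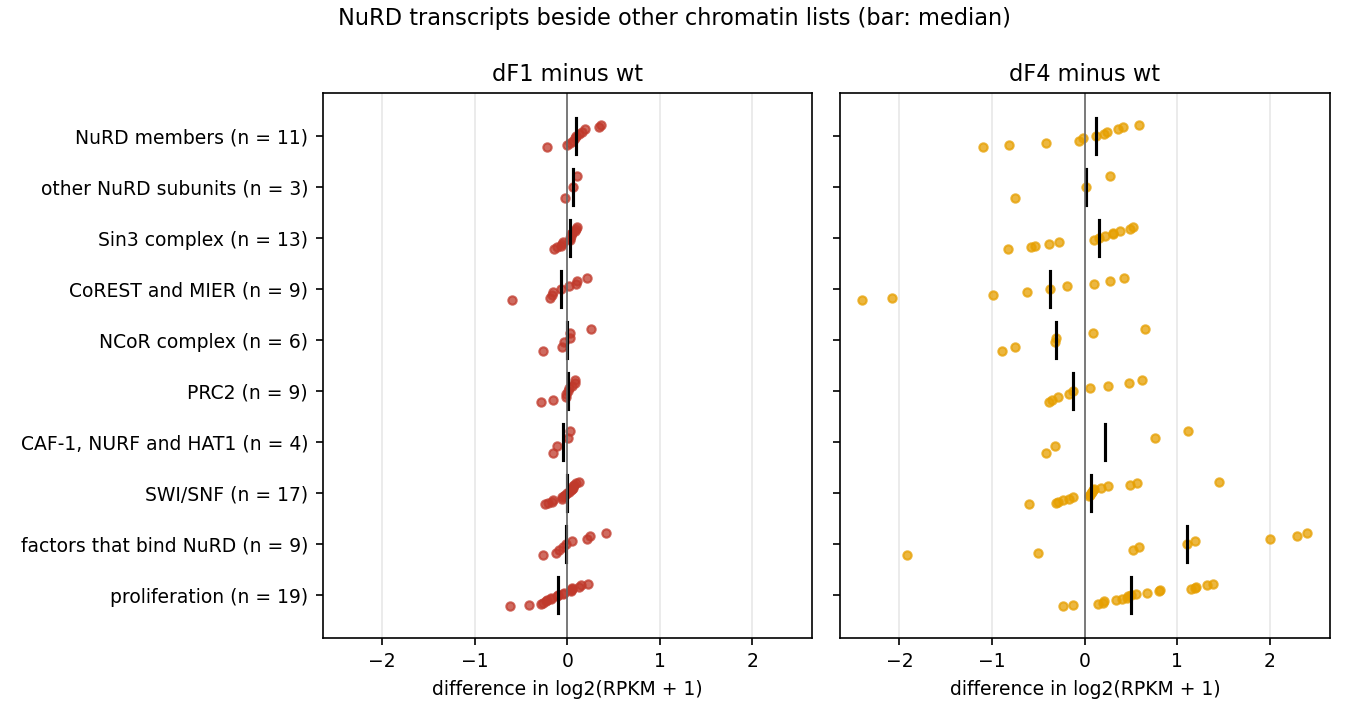
Difference from wt on log2(RPKM + 1) for each tested NuRD transcript and for tested genes of other lists, dF1 on the left and dF4 on the right, with a bar at each median. In dF1 all NuRD points lie between -0.21 and 0.37, and in dF4 the factors that bind NuRD have a median of 1.11 (0.85 without Bcl11b, which passed the filter through dF4 alone), against 0.12 for the NuRD transcripts.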

How the data were processed

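Per the labels' protocols, mRNA was enriched and made into Illumina TruSeq libraries. The deposited values are RPKM for RefSeq transcripts, per the file headers, with 1 decimal. TopHat, bedtools and mm9 are named in the submitters' processing notes. Read filters, strand and the treatment of reads that fit several places were not given in the sources used here, so overlapping and antisense genes cannot be told apart. A row without a gene name was dropped.

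Differences were taken on log2(RPKM + 1), which understates those of low transcripts. For dF1 against wt, limma 3.58.1 in R 4.3.3 was fitted with a trend, two-sided, with Benjamini-Hochberg adjustment over 12215 transcripts. These had a 5-library mean of at least 1 RPKM, and 11 of the 12 member rows passed. The fit was tested on simulated data with changes far larger than the members' differences. That test does not show whether differences as small as theirs would be found. With a single dF4 library no test was made for finger 4. Its reads were estimated from the smallest steps of its values (1.674 RPM for 1 read). Gene copies were found with BLAST 2.17.0 against GENCODE M21.

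Every member row is described. From each list of related genes, up to 3 with the largest dF4 difference and a mean of at least 5 RPKM could be named. Gapdh, Xist, Cd300c, Cd3d, Dntt, Blnk, Bcl11b, Ccnb1, Pcna, Ikzf1, Chd5, Cdk2ap1 and the shorter Mta3 rows were added after their values were seen. The members and lists were chosen with earlier results of these data known. The alternatives were pseudocounts of 0.1 and 5, other filters, quantile normalization, median centring, robust variances, the replicate number as a block, 1 transcript a gene and leaving out each library.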

Additional observations from a re-analysis of the deposited data

How the results depend on the processing

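No member was called under any setting (lowest adjusted p 0.420). Over all transcripts, limma called 245 with no filter, 25 with the filter at 5 RPKM and 33 with robust variances, against 0 otherwise. The labels give no shared source for equal replicate numbers. The replicate differences correlated at 0.305 between dF1 and wt, and with the replicate number as a block 0 transcripts and 0 members were called. Member differences between dF1 and wt near 0 changed sign: Mbd3 was at -0.00086 after quantile normalization. Leaving out 1 library gave -0.13 to 0.19 for Mbd3, -0.047 to 0.21 for Mta1, -0.094 to 0.079 for Mta2, -0.11 to 0.49 for Rbbp4, 0.10 to 0.63 for Hdac1, which kept its sign, and -0.052 to 0.18 for Chd4. The cause was not tested. The dF1 member median ran from 0.054 to 0.20 and the dF4 median from -0.05 to 0.23 in the same way. With the whole Poisson interval in place of the dF4 value, chosen after seeing the data, 2 members and 3418 transcripts lay outside the other libraries, against 8 and 9585. Of the alternative values of dF4 minus wt, 64 stayed within counting error and 2 did not, those of Rbbp4 given above without a wt library. Staying within counting error did not fix the sign. Without wt replicate 2 Hdac1 was at -0.05, against 0.21, and without wt replicate 1 Mta2 was at 0.07, against -0.015. The median over all transcripts in dF4 was -0.08 after quantile normalization, against 0.02, and no member changed sign there. Among the members, that whole interval lay outside the other libraries for Gatad2b and Mta1 alone. Counting error in dF4 differed by member, with about 9 reads for Hdac1 and about 441 for Chd4.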
